A study of Danio rerio with 4 samples.

Results

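The genes described here encode matrix proteases and their inhibitors in the embryonic zebrafish heart: the matrix metalloproteases (Mmp), the membrane-bound Adam proteases, the secreted Adamts and Adamts-like (Adamtsl) proteins, and the tissue inhibitors of metalloproteases (Timp). They were taken by symbol, as every gene whose name begins with one of these family names, and 48 of 56 matching genes reached an average of 5 normalized counts in the 4 libraries. These 48 genes, of 19661 in the deposited table and 17501 that passed the same minimum, comprised 15 Adam, 14 Adamts, 3 Adamtsl, 13 Mmp and 3 Timp genes. RNA was sequenced from hearts dissected at 48 hours postfertilization (hpf) from *egr3* mutants and from their wild-type siblings, with 2 libraries per genotype and 20 hearts in each pool. The mutants were *bns577*-/-, carrying an 11-bp deletion in the coding sequence of the transcription factor gene *egr3* on both chromosomes, which is predicted to truncate the protein. The wild-type siblings were *bns577*+/+, at the same age. No drug or transgene is given in the labels for any library. The mutants were made to study cardiac valve formation, and the comparison asks which of these genes differ in the dissected hearts between the genotypes.

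Extracellular matrix proteases cut the proteins that lie between and on cells. Mmps digest collagens, laminins and other matrix proteins, and are either secreted or tethered to the cell surface (the membrane-type Mmps). Adams mainly release the extracellular part of membrane proteins such as Notch receptors, growth factor precursors and cadherins, while Adamts proteases are secreted and cleave proteoglycans such as versican, or process procollagens. Timps bind the active site of Mmps and of some Adams and block it. In the developing heart, cardiac jelly rich in hyaluronan and versican separates the endocardium from the myocardium, and its remodeling accompanies trabeculation and the formation of endocardial cushions and valves.

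The deposited values are normalized counts, which summed to 9161759 and 9313756 in the mutant libraries and to 9254724 and 9481943 in the wild-type libraries. They are not scaled to gene length, so a difference in value between genes is no measure of their relative expression. *egr3* itself, on chromosome 8 from 50727220 to 50733508 (danRer11), was present at 873 and 889 normalized counts in the mutants, against 528 and 537 in the wild types. A small deletion leaves the gene's reads countable, so this level checks no label. The myocardial gene *myl7* had 2365 and 2336 normalized counts in the mutants and 2491 and 2610 in the wild types, so heart muscle was sampled in every pool. All 4 hatching gland markers were lower in both mutant libraries, with sums of 21 to 27 in the mutants and 1432 to 1758 in the wild types. The 5 epidermal markers summed to 1197 to 4000 in the mutants and 3515 to 17364 in the wild types, with the highest sum in wild-type replicate 2. The study's sequencing sheet lists a library with a mutant name as the second wild-type replicate, and a library with a wild-type name as the second mutant replicate, whereas the series description says that the reads of the mutant samples showed the deletion. Genotypes were taken from the sample labels. Across all genes tested, the difference between the replicates of one genotype mirrored that of the other (correlation -0.99 across genes, which are not independent replicates), so that the 4 values of a gene hold little more than 1 independent measure of spread. The tests below treat the 4 libraries as independent, so their standard errors and p-values can be too small. Results are also given for replicate 1 of each genotype alone, whose library names match their labels. Because of the mirror, these are not independent of replicate 2 and are no separate check. Their sign can differ from that of all 4 libraries only where the averaged within-genotype difference exceeds the difference between genotypes.

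None of the 48 protease and inhibitor genes passed an adjusted p under 0.05 between mutant and wild-type hearts, and the lowest adjusted p was 0.126, for *adam9* (limma with Benjamini-Hochberg adjustment over all genes tested). In the same fit 0.00571% of all genes passed, which is a single gene. At an unadjusted limma p under 0.05 there were 7 members higher in the mutants and 2 lower, against a background of 10.8% of all genes higher and 10.8% lower. Both mutant libraries lay above both wild types for 10 members and below both for 10 members, where 24.7% and 25.8% of all genes did so. The remaining 28 members overlapped between the genotypes. On the log2(value + 1) scale, a difference of at least 1.5-fold without overlap was found higher in the mutants for 4 members, *adam9*, *adam11*, *adamts18* and *timp4.1*, against 7.01% of all genes. It was found lower in the mutants for 3 members, *adam22*, *adam28* and *adamts17*, against 5.02% of all genes. *adam11* and *adam28* reached the minimum mean only through the genotype in which they were higher, so part of their separation follows from the minimum. Without that pair, 6 members were higher and 1 lower at an unadjusted p under 0.05, and 3 were higher and 2 lower by 1.5-fold without overlap. The median log2 fold change was 0.02 over the members and -0.00 over all genes, so the families as a whole were centered where the transcriptome was.

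**Figure D1:**
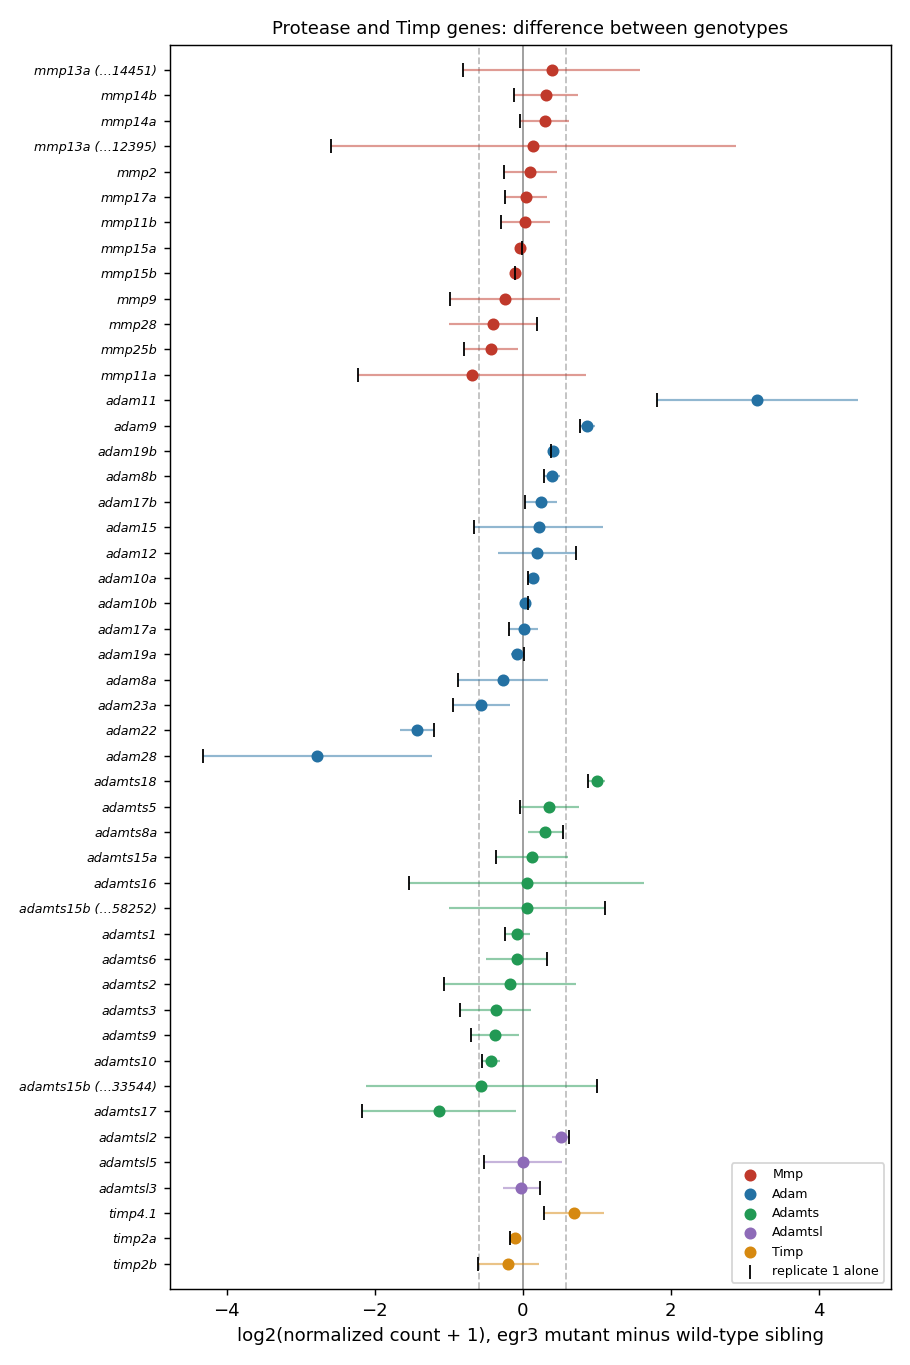
Difference between *egr3* mutant and wild-type hearts in log2(normalized count + 1) (horizontal axis) for each of the 48 genes, by family. Dots are the differences of the genotype means, and thin lines in the family color span the differences of replicate 1 and replicate 2. Black ticks mark replicate 1 alone, and dashed lines mark a 1.5-fold difference. The Mmp dots lie between -0.69 and 0.39, and *adam9* stands at 0.87 with a short line.

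The families did not carry these differences equally in number. Of the 15 Adam genes, 5 were higher and 2 lower at an unadjusted p under 0.05, and the family median was a log2 fold change of 0.14. These counts include *adam11* among the higher and *adam28* among the lower genes. Both reached the minimum mean only through the genotype in which they were higher. The share in all genes at that threshold was 10.8% in each direction, and the counts per family are to be read against it. A single Adamts gene of 14 and a single Adamtsl gene of 3 were higher at that threshold, and none was lower. None of the 13 Mmp and 3 Timp genes reached it in either direction. Whether the families differ from one another was not tested. Summed over its members, the Adam family had 7301 and 8133 normalized counts in the mutants and 7403 and 6821 in the wild types. The Mmp sum was 3705 and 4834 in the mutants and 4260 and 3392 in the wild types, so the genotypes overlapped in both families. Because each pool is whole hearts, a lower value can come from fewer cells of a type or from less RNA per cell. Markers of tissue outside the heart, such as the hatching gland, were also counted in the pools. Such tissue can therefore add to a value as well, and these sources cannot be told apart.

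Among the inhibitors, no Timp mRNA was separated from the spread of the libraries by the test. *timp2a* (chromosome 12, 33990947 to 34035364) encodes a homolog of mammalian TIMP2, which inhibits Mmps and also takes part in the activation of pro-Mmp2 by membrane-type Mmps. It had 1167 and 1247 normalized counts in the mutants and 1313 and 1272 in the wild types. Both mutant libraries lay just below both wild types, with means of 1207 ± 56.6 in the mutants and 1292.5 ± 29.0 in the wild types (SD, n = 2 each). The log2 fold change was -0.10 (standard error, SE, 0.05, limma adjusted p = 0.359). Its paralog *timp2b* showed 164 and 222 normalized counts in the mutants and 250 and 191 in the wild types, which overlap. *timp4.1* had 10 and 14 normalized counts in the mutants and 8 and 6 in the wild types. That gene was 1.62-fold higher in the mutants on the log2(value + 1) scale without overlap (limma adjusted p = 0.313), but at this level a few reads decide the ratio. It also lies within the span of *syn2b*, a synapsin gene, as Timp genes lie in synapsin introns in mammals, and the counting is not given as strand-specific.

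The membrane-type Mmps and the gelatinase Mmp2 form an activation chain, since Mmp14 at the cell surface cuts pro-Mmp2 and Timp2 bridges the pair. None of these genes was separated between the genotypes. For *mmp2* (chromosome 7, 35410050 to 35432901), the mutants had 946 and 1234 normalized counts and the wild types 1132 and 899. *mmp14a* (chromosome 7, 24124289 to 24149670) had 843 and 1076 in the mutants and 861 and 698 in the wild types. *mmp14b* (chromosome 2, 38161318 to 38183641) had 1015 and 1395 in the mutants and 1098 and 828 in the wild types. In all 3 genes mutant replicate 2 was the highest library, and wild-type replicate 1 was above wild-type replicate 2. The log2 fold changes were 0.10 for *mmp2*, 0.30 for *mmp14a* and 0.32 for *mmp14b* (limma adjusted p = 0.793, 0.407 and 0.479). With replicate 1 of each genotype alone, the log2 differences were -0.26 for *mmp2*, -0.03 for *mmp14a* and -0.11 for *mmp14b*. Their turned sign restates that the within-genotype difference exceeded the difference between genotypes. Leaving out each library in turn gave -0.093 to 0.29 for *mmp2*, 0.12 to 0.47 for *mmp14a* and 0.090 to 0.55 for *mmp14b*. The genotypes overlapped in all 3 genes, so no direction is given for the trio.

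Among the other membrane-type Mmps, the *mmp15* paralogs varied little among the libraries. *mmp15b* had 265 and 270 normalized counts in the mutants and 285 and 290 in the wild types, a small difference without overlap (log2 fold change -0.10, limma adjusted p = 0.415). *mmp15a* had 137 and 136 in the mutants and 138 and 143 in the wild types. *mmp17a*, a member anchored by a lipid tail in mammals, had 71 and 88 in the mutants and 84 and 70 in the wild types. The replicates of each genotype thus lay closer together for the *mmp15* paralogs than for *mmp17a*, *mmp14a* or *mmp14b*. *mmp25b*, whose mammalian homolog is made mainly by neutrophils, had 60 and 79 normalized counts in the mutants and 105 and 83 in the wild types. It was lower in both mutant libraries, with a log2 fold change of -0.43 (SE 0.22, limma adjusted p = 0.340). Of the 6 membrane-type genes, 3 were lower in both mutant libraries and none was higher in both, against 25.8% of all genes lower and 24.7% higher. The log2 fold changes of *mmp15a* and *mmp15b* were only -0.04 and -0.10.

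The secreted Mmps other than *mmp2* overlapped between the genotypes in every case. *mmp9*, the second gelatinase, which leukocytes and wounded epithelia release, had 29 and 50 normalized counts in the mutants and 58 and 35 in the wild types. The log2 fold change was -0.24 (SE 0.41, limma adjusted p = 0.764). The collagenase *mmp13a* is annotated as a pair of genes on chromosome 10 that share the symbol and lie 8.18 kb apart, between which reads could be split. The gene ENSDARG00000114451 had 31 and 74 normalized counts in the mutants and 55 and 24 in the wild types. The other, ENSDARG00000012395, had 2 and 21 in the mutants and 17 and 2 in the wild types. Both copies were thus high in mutant replicate 2 and wild-type replicate 1, and low in the other libraries. The stromelysin-3 homologs, which furin activates inside the cell, gave 15 and 46 normalized counts in the mutants and 74 and 25 in the wild types for *mmp11a*. *mmp11b* had 276 and 355 in the mutants and 340 and 274 in the wild types. *mmp28* had 15 and 10 in the mutants and 13 and 21 in the wild types.

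Leukocyte markers were read beside these genes because leukocytes make *mmp9*, *mmp13a* and *mmp25b*. The 4 neutrophil markers summed to 1845 and 3031 normalized counts in the mutants and 2535 and 1633 in the wild types. Among them, the myeloperoxidase gene *mpx* had 666 and 1128 in the mutants and 1034 and 632 in the wild types, and all 4 were higher in mutant replicate 2 and wild-type replicate 1 than in the other library of the genotype. The 5 macrophage markers summed to 2476 and 2959 in the mutants and 2703 and 2360 in the wild types. Of these, 4 had the same library order, while *csf1ra* had the opposite one, with 35 and 18 in the mutants and 33 and 65 in the wild types. The 4 epicardial markers, of which *tbx18* had 47 and 148 in the mutants and 148 and 48 in the wild types, summed to 968 and 1283 in the mutants and 1254 and 976 in the wild types. None of these markers was at 0 in the table, and the part of such cells in the protease values was not tested.

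Among the members, *adam9* had the largest log2 fold change relative to its limma SE, which also draws on the spread of other genes. It encodes a membrane protease, which in mammals sheds growth factor precursors such as HB-EGF and binds integrins through its disintegrin domain. It had 421 and 461 normalized counts in the mutants and 247 and 234 in the wild types, with the lowest mutant library well above the highest wild type. The means were 441 ± 28.3 in the mutants and 240.5 ± 9.19 in the wild types (SD, n = 2 each), a 1.83-fold difference. The log2 fold change was 0.87 (SE 0.08, limma adjusted p = 0.126). With a replicate block in the fit, the SE was 0.17 (limma adjusted p = 0.841). The log2 difference was 0.77 for replicate 1 alone and 0.98 for replicate 2 alone, which are not independent of each other. The gene (ENSDARG00000010070) lies on chromosome 8 from 45850139 to 45939691, 4.79 Mb from *egr3*, with no other annotated gene overlapping it. Of the 167 tested genes within 10 Mb of *egr3*, 41.9% had an unadjusted p under 0.05, with 38 higher and 32 lower in the mutants, against 21.6% of all genes tested. Linkage to the mutated locus and an effect of the mutation cannot be told apart for *adam9* in this design. The other 3 members on that chromosome, *mmp9*, *mmp11a* and *adamts10*, lie 26.4, 19.9 and 30.3 Mb from *egr3*.

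**Figure D2:**
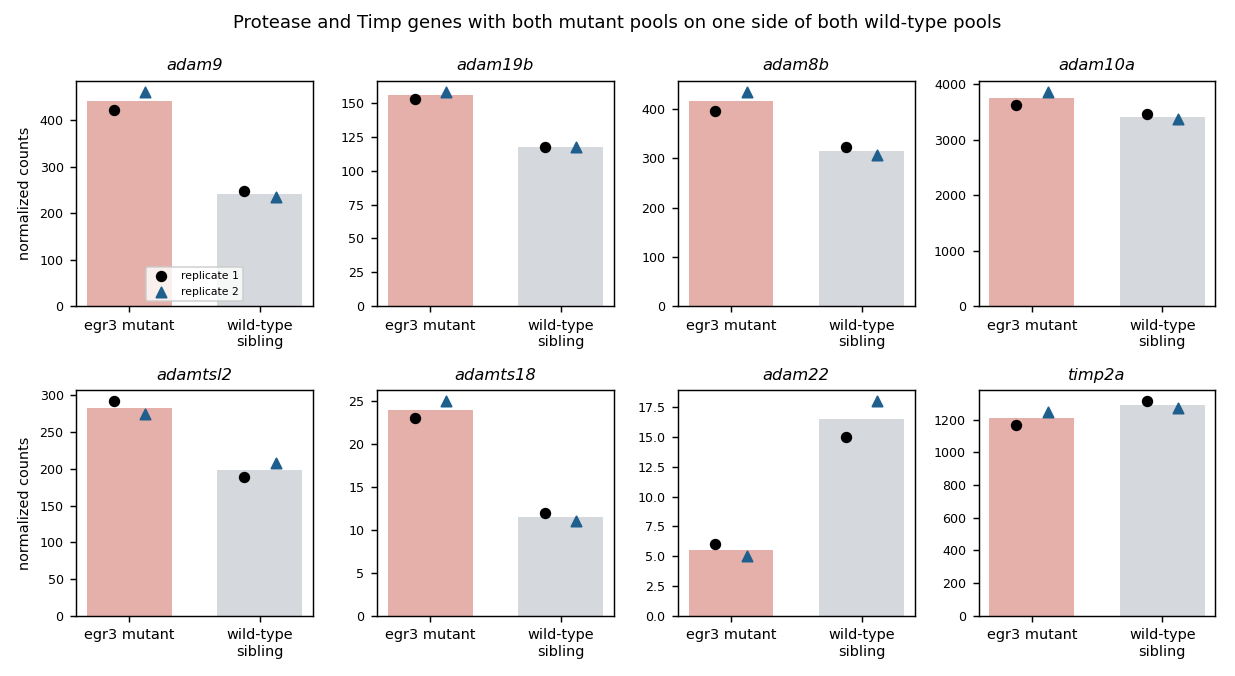
Normalized counts (vertical axes, from 0) of 8 members in *egr3* mutant (left) and wild-type (right) hearts. Bars are means of 2 libraries, circles are replicate 1 and triangles replicate 2. In each panel the mutant libraries lie wholly above the wild types, except *adam22* and *timp2a*, where they lie wholly below.

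A further 3 proteolytic Adams were higher in both mutant libraries with little spread. *adam19b*, homologous to meltrin beta, which in mice is needed for cardiac cushion and septum formation and sheds neuregulin, had 153 and 158 normalized counts in the mutants and 117 and 117 in the wild types. The log2 fold change was 0.41 (SE 0.08, limma adjusted p = 0.146), and replicate 1 alone gave 0.38. *adam8b*, a homolog of a leukocyte protease of mammals, had 397 and 435 in the mutants and 324 and 306 in the wild types (log2 fold change 0.40, limma adjusted p = 0.146). *adam10a*, which encodes the main protease that makes the ligand-induced cut in Notch receptors, had 3634 and 3864 in the mutants and 3457 and 3366 in the wild types. Its difference was small, with a log2 fold change of 0.14 (SE 0.04, limma adjusted p = 0.205).

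The paralogs of these genes did not separate in the same way. *adam19a* had 121 and 116 normalized counts in the mutants and 120 and 130 in the wild types, *adam10b* had 891 and 884 in the mutants and 849 and 886 in the wild types, and both overlapped. *adam8a* had 550 and 853 in the mutants and 1007 and 673 in the wild types, a spread within each genotype that exceeds the log2 fold change of -0.26. Adam17, the enzyme that releases tumor necrosis factor and several epidermal growth factor receptor ligands in mammals, has paralogous genes in zebrafish. *adam17a* had 577 and 673 normalized counts in the mutants and 656 and 582 in the wild types, with a log2 fold change of 0.01. *adam17b* had 112 and 133 in the mutants and 110 and 96 in the wild types, higher in both mutant libraries by a log2 fold change of 0.25 (limma adjusted p = 0.401). Whether paralogs differ from each other in their response was not tested.

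The remaining proteolytic Adams were scattered. *adam12*, homologous to meltrin alpha of mammals, had 223 and 157 normalized counts in the mutants and 135 and 198 in the wild types, the reverse library order of most members. *adam15* had 170 and 317 in the mutants and 268 and 149 in the wild types, so that the replicates of each genotype differed far more than the genotypes. *adam28* was near the minimum, with 0 and 2 normalized counts in the mutants and 19 and 6 in the wild types. Its unadjusted p was under 0.05, with an adjusted p of 0.214 from limma, and a fold is not given because a mutant library is at 0.

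The Adams without a working protease site, *adam11*, *adam22* and *adam23a*, act in neurons of mammals as receptors and adhesion partners of Lgi proteins. They did not move together. *adam22* had 6 and 5 normalized counts in the mutants and 15 and 18 in the wild types, a log2 fold change of -1.43 (SE 0.26, limma adjusted p = 0.140). Its span overlaps *cldn12*. *adam23a* had 40 and 53 in the mutants and 78 and 60 in the wild types, with a log2 fold change of -0.56 (limma adjusted p = 0.281). *adam11* had 6 and 22 in the mutants and 1 and 0 in the wild types, so that it was hardly detected in the wild types. Thus *adam22* and *adam23a* were lower and *adam11* higher in both mutant libraries. The 3 neuronal markers tested were all higher in both mutant libraries, with sums of 582 and 503 in the mutants and 315 and 394 in the wild types, and *elavl3* had 40 and 48 in the mutants and 13 and 11 in the wild types. The part of neural tissue in the values of *adam11* was not tested.

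None of the 7 proteoglycan-cleaving Adamts genes reached an unadjusted p under 0.05. Proteases of this group cut versican in the cardiac jelly of mouse hearts, and *Adamts1* and *Adamts9* are known there for trabeculation and valve remodeling. *adamts1* had 610 and 698 normalized counts in the mutants and 723 and 654 in the wild types, with a log2 fold change of -0.08 (SE 0.10, limma adjusted p = 0.696). *adamts9* had 72 and 92 in the mutants and 117 and 95 in the wild types, just below without overlap (log2 fold change -0.37, limma adjusted p = 0.361). *adamts5* had 35 and 48 in the mutants and 36 and 28 in the wild types, and its log2 fold change of 0.36 became -0.04 with replicate 1 alone. *adamts1* and *adamts5* lie 10.6 kb apart on chromosome 1 on the same strand, with *adamts1* at 0.95-fold and *adamts5* at 1.28-fold in the mutants on the log2(value + 1) scale. The neighbors *adamts15a* and *adamts8a*, 2.04 kb apart on opposite strands of chromosome 5, had opposite library orders within the genotypes. *adamts15a* had 1640 and 2342 normalized counts in the mutants and 2107 and 1528 in the wild types. *adamts8a* had 78 and 67 in the mutants and 53 and 64 in the wild types (log2 fold change 0.31, limma adjusted p = 0.370). Both genes annotated as *adamts15b*, 2.07 kb apart on chromosome 15, rested on few reads, and reads could be split between them. One had 7 and 2 in the mutants and 3 and 12 in the wild types, and the other had 27 and 13 in the mutants and 12 and 27 in the wild types.

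Among the other Adamts genes, *adamts18* was the only one past an unadjusted p of 0.05. It had 23 and 25 normalized counts in the mutants and 12 and 11 in the wild types, a 2.00-fold difference on the log2(value + 1) scale (log2 fold change 1.00, SE 0.19, limma adjusted p = 0.141). Replicate 1 alone gave 0.88. *adamts17* had 7 and 15 in the mutants and 35 and 16 in the wild types, lower in both mutant libraries by a narrow gap. *adamts10*, whose mammalian homolog binds fibrillin, had 29 and 32 in the mutants and 43 and 40 in the wild types (log2 fold change -0.43, limma adjusted p = 0.232). *adamts6*, needed for outflow tract development in mice, had 43 and 33 in the mutants and 34 and 47 in the wild types. The genotypes overlapped for *adamts6*, and also for *adamts16* with 8 and 27 in the mutants and 25 and 8 in the wild types. The procollagen N-proteinases, which trim fibrillar procollagens before fibril assembly, also overlapped. *adamts2* had 11 and 22 in the mutants and 24 and 13 in the wild types, and *adamts3*, which in mammals processes VEGF-C, had 57 and 81 in the mutants and 103 and 75 in the wild types.

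The Adamtsl proteins resemble Adamts proteases but lack the protease domain and sit in the microfibril matrix. *adamtsl2* (ENSDARG00000074033, chromosome 5, 65880890 to 65921536), whose human homolog is mutated in geleophysic dysplasia, a disorder with thickened heart valves, was higher in both mutant libraries. It had 292 and 274 normalized counts in the mutants and 189 and 208 in the wild types, with means of 283 ± 12.7 in the mutants and 198.5 ± 13.4 in the wild types (SD, n = 2 each). The log2 fold change was 0.51 (SE 0.09, limma adjusted p = 0.138), a 1.42-fold difference, and replicate 1 alone gave 0.62. *adamtsl3* had 720 and 618 in the mutants and 615 and 742 in the wild types, with log2 fold change -0.02. *adamtsl5* had 237 and 347 in the mutants and 340 and 240 in the wild types, with log2 fold change 0.01, and both therefore overlapped.

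Within the genotypes, many of these genes followed one library pattern. In 34 of 48 members (70.8%), mutant replicate 2 was above mutant replicate 1 while wild-type replicate 1 was above wild-type replicate 2, a pattern that 42.9% of all genes showed. The opposite pattern was found in 12 members, against 45.5% of all genes. The averaged within-genotype difference reached 1.5-fold in the first direction in 11 members (22.9%), against 8.5% of all genes. It did so in the opposite direction in 3 members, against 1466 of the 17501 genes tested. The members with such swings included *mmp9*, both *mmp13a* genes, *mmp11a*, *adam8a* and *adam15*. Mutant replicate 2 was the highest library for 21 members (43.8%), against 29.6% of all genes. Wild-type replicate 1 was the highest for 14 members (29.2%), against 18.3% of all genes. In 28 members (58.3%) the within-genotype difference exceeded the difference between the genotypes, and this was so for 47.1% of all genes. By family the first pattern held in 10 of 13 Mmp, 10 of 15 Adam, 10 of 14 Adamts, 1 of 3 Adamtsl and 3 of 3 Timp genes. Mutant replicate 2 and wild-type replicate 1 are the libraries with wild-type names in the sequencing sheet, and they also had the higher neutrophil sums. Other lists had the same order, among them the epicardial markers. Neural crest and pigment markers summed to 59 and 174 in the mutants and 70 and 19 in the wild types. Liver and yolk markers summed to 196 and 440 in the mutants and 236 and 105 in the wild types. The cardiomyocyte, epidermal, hatching gland, neuronal and cartilage sums had the opposite order. Because the replicate differences were mirrored across all genes (correlation -0.99), a gene high in mutant replicate 2 was mostly high in wild-type replicate 1. The agreement of these libraries, for members and for marker lists, is therefore not a separate observation. Library identity, the content of leukocytes or other cells and other differences between pools cannot be told apart for this pattern. No test was made of it. Other genes were separated by genotype label, among them *egr3*, *nrg1* and the hatching gland gene *he1.1*. *egr3* showed neither library order, while *nrg1* and *he1.1* showed the opposite one, as 45.5% of all genes did. *he1.1* had 17 and 16 normalized counts in the mutants and 987 and 1063 in the wild types. These genes were picked with their values known, and whether they bear on library identity was not tested.

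**Figure D3:**
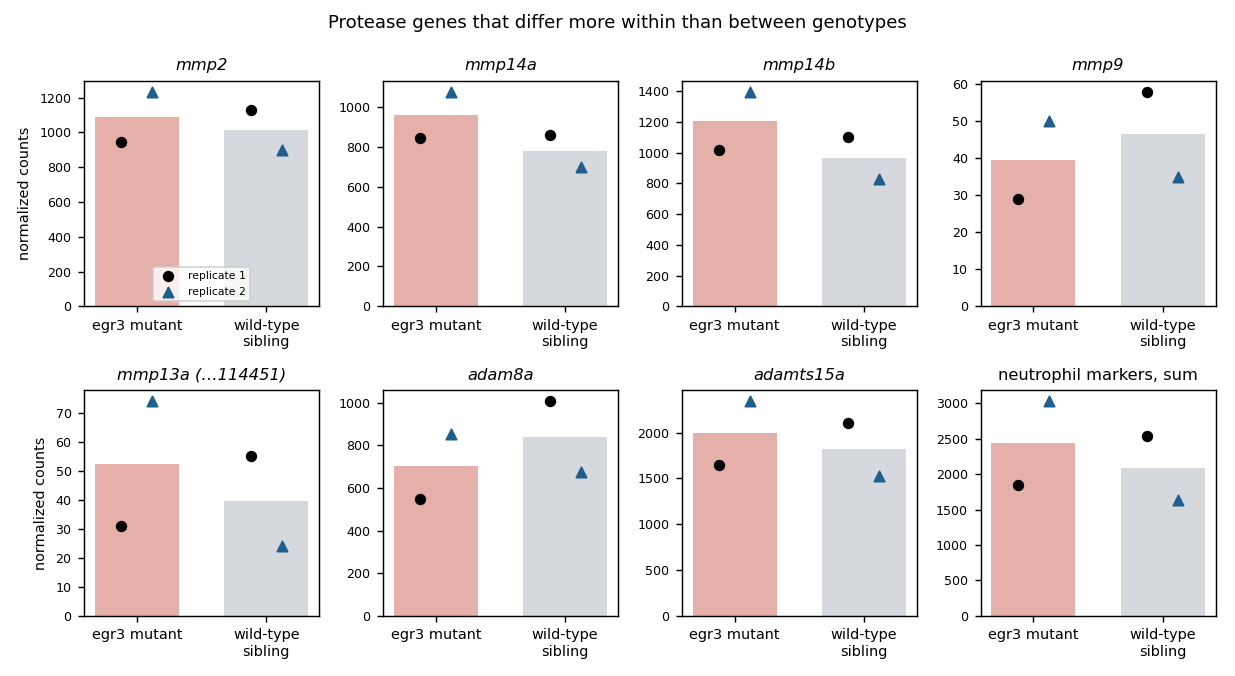
Normalized counts (vertical axes, from 0) of 7 members and the sum of 4 neutrophil markers in *egr3* mutant (left) and wild-type (right) hearts. Bars are means of 2 libraries, circles replicate 1 and triangles replicate 2. In every panel the triangle is higher in the mutants and the circle is higher in the wild types.

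**Figure D4:**
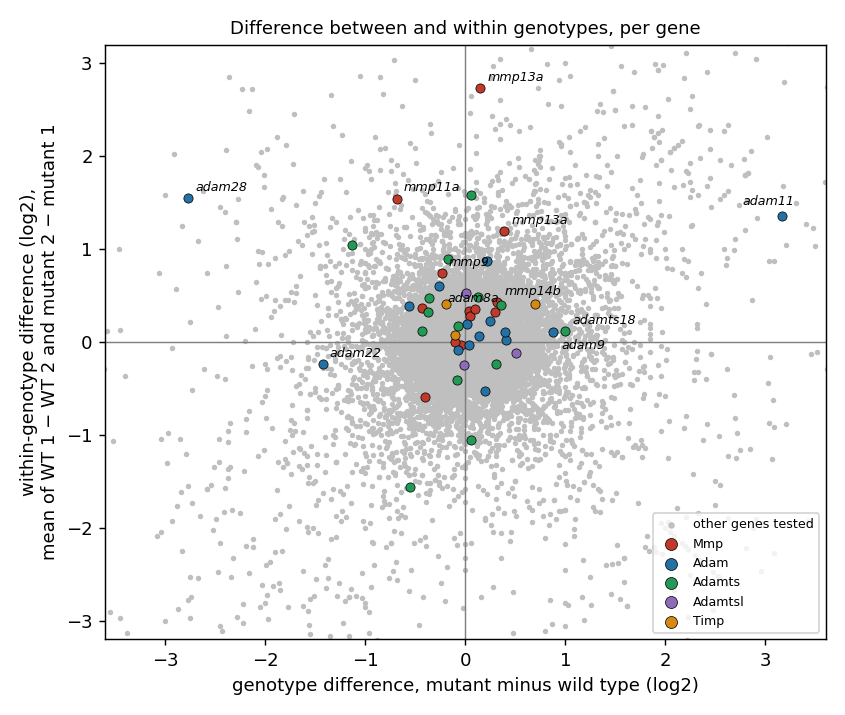
Difference between mutant and wild-type hearts (horizontal axis, log2) against the mean within-genotype difference, mutant replicate 2 minus 1 and wild-type replicate 1 minus 2 (vertical axis, log2), for the 48 members by family and for all other genes (gray). Of the genes tested, 192 lie outside the plotted range. *adam9* lies right of the center at 0.87 and near 0 on the vertical axis, while most Mmp genes lie above 0 and near the center.

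Genes that work with these proteases were read from fixed lists of 56 genes, of which 39 passed the minimum. None had an adjusted p under 0.05, and 8 were higher and 2 lower in the mutants at an unadjusted p under 0.05, with a median log2 fold change of 0.12. This and the counts for single lists stand against 10.8% of all genes in each direction. Of 8 other inhibitors and activators, *tfpi2*, a Kunitz inhibitor, was the one past that threshold, with 24 and 22 normalized counts in the mutants and 11 and 13 in the wild types. The membrane-anchored Mmp inhibitor *reck* had 1210 and 1265 in the mutants and 1196 and 1184 in the wild types (log2 fold change 0.06). The proprotein convertase *furinb*, of the kind that activates Mmp14, Adams and Adamts proteases, had 379 and 431 in the mutants and 345 and 314 in the wild types (log2 fold change 0.30, limma adjusted p = 0.234).

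Partners of Adam10 and Adam17 divided in direction. *rhbdf1b*, encoding an inactive rhomboid of the kind that carries Adam17 to the cell surface, had 188 and 156 normalized counts in the mutants and 80 and 100 in the wild types (log2 fold change 0.93, limma adjusted p = 0.141). Its paralog *rhbdf1a* had 3282 and 3153 in the mutants and 3326 and 3584 in the wild types (log2 fold change -0.10, limma adjusted p = 0.339). The tetraspanin *tspan5a*, of a group that escorts Adam10, had 507 and 504 in the mutants and 634 and 661 in the wild types (log2 fold change -0.36, limma adjusted p = 0.134). *tspan14* of the same group had 1944 and 1940 in the mutants and 1760 and 1826 in the wild types. Among 9 such partners, 2 were higher and 1 lower at an unadjusted p under 0.05.

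Among substrates, 2 of 8 proteoglycan genes were higher at an unadjusted p under 0.05. Perlecan (*hspg2*) had 420 and 346 normalized counts in the mutants and 206 and 259 in the wild types (log2 fold change 0.72, limma adjusted p = 0.162). Biglycan (*bgnb*) had 142 and 165 in the mutants and 107 and 95 in the wild types. Versican *vcana* had 256 and 130 in the mutants and 145 and 295 in the wild types, which overlap. Of 11 membrane proteins that Adams shed, 3 were higher and 1 lower at that threshold. The Notch ligand *jag1b* had 469 and 508 in the mutants and 315 and 300 in the wild types (log2 fold change 0.67, limma adjusted p = 0.127). The Notch receptor *notch1b* had 274 and 313 in the mutants and 244 and 221 in the wild types. Neuregulin (*nrg1*), a ligand of cardiomyocyte ErbB receptors, had 54 and 45 in the mutants and 176 and 221 in the wild types and was lower in both mutant libraries (log2 fold change -1.98, SE 0.18, limma adjusted p = 0.126). None of the 3 secreted metalloproteases of the tolloid family passed at that threshold.

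The 8 matching genes under the minimum were *mmp13b*, *mmp17b*, *mmp20b*, *mmp23bb*, *mmp25a*, *mmp30*, *adamts12* and *adamts14*. Just outside, *adamts12* had 0 and 2 normalized counts in the mutants and 14 and 3 in the wild types, and *mmp17b* had 3 and 12 in the mutants and 3 and 1 in the wild types, each with a mean of 4.75. Just inside, the *adamts15b* gene ENSDARG00000033544 had a mean of 6, *adam28* of 6.75 and *adam11* of 7.25. Further outside, *mmp20b* had 10 and 4 normalized counts in the mutants and 0 and 1 in the wild types, and *adamts14* had 8 and 4 in the mutants and 0 and 1 in the wild types, neither with overlap. The other 4 genes had 0 to 7 normalized counts in the mutants and 0 to 8 in the wild types and overlapped between the genotypes. The 8 genes were left out of the counts of members, and no direction is read from values this low.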

How the data were processed

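For the authors' processing, the labels' notes name Trimmomatic 0.39, STAR 2.7.10a, Picard 2.27.1, featureCounts 2.0.2, DESeq2 1.30.1 and danRer11. Single-end SMART-Seq libraries were used, and reads that were duplicates, mapped to several places or came from mitochondria or ribosomal RNA were removed. The deposited values are treated here as a score: the authors normalized read counts with DESeq2 and rounded them to whole numbers, and the mirrored replicates leave it unknown whether a further step was applied, so they are not raw counts and no count model was used. Gene counts therefore carry no counting interval here. The precision is limited by the 2 pools per genotype, and the pools are the replicates.

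The 17501 genes averaging 5 or more were fitted on log2(value + 1) with limma 3.58.1 in R 4.3.3 (lmFit, eBayes with trend, no block), with Benjamini-Hochberg adjustment over all of them. With 2 libraries against 2, an exact two-sided permutation test cannot go below p = 0.333, so none was made. Counts, sums and figures were made in Python 3.11.15 with pandas 2.3.3 and matplotlib 3.10.9. Symbols, positions and overlaps are those of the deposited annotation.

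The members and gene lists were chosen with earlier results of these data known. Named by rule were every Timp gene, the 3 highest mean values (not scaled to length) of the Mmp, Adam and Adamts families, genes with an adjusted p under 0.05, non-overlapping genes of at least 1.5-fold with a mean of at least 20, and textbook cardiac members, 22 in all. The other members, and the companion and marker genes given with values, were chosen after their values were seen. Alternatives covered the block, the trend, the pseudocount, the minimum, the scaling and each library left out.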

Additional observations from a re-analysis of the deposited data

How the results depend on the processing

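The call of 1 gene of the whole table became 0 with a replicate block, 28 without the variance trend, 3 with a mean of at least 20, 0 with no filter, and 0 to 0 when each library was left out in turn. The 9 protease and inhibitor genes at an unadjusted limma p under 0.05 became 1 with the replicate block, 5 with a mean of at least 20, and 2 to 5 over the libraries left out (5 without mutant replicate 1, 3 without mutant replicate 2, 3 without wild-type replicate 1 and 2 without wild-type replicate 2), where a lone library is assumed to vary like the other genotype. No member passed an adjusted p under 0.05 in any of these fits. Deviations of same-numbered libraries correlated at -0.99 across genes. This cannot show whether the replicate numbers pair the samples, since it is unknown whether a further step was applied to the values. A crossed replicate block, chosen after seeing the data, called 12169 genes, 34 members among them, and left 37 members at an unadjusted p under 0.05, because it takes the mirrored difference out of the spread and leaves almost none.

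With replicate 1 alone, also chosen after seeing the data, 9 of 22 named log2 fold changes turned sign. This is no independent check, because the replicate differences were mirrored. The turned values were -0.18 for *adam17a*, 0.012 for *adam19a*, -0.36 for *adamts15a* and -0.040 for *adamts5*. They were -2.58 and -0.81 for the *mmp13a* genes ENSDARG00000012395 and ENSDARG00000114451, -0.030 for *mmp14a*, -0.11 for *mmp14b* and -0.26 for *mmp2*. Leaving out each library gave ranges that crossed 0 of -0.10 to 0.12 for *adam17a*, -0.58 to 0.051 for *adam8a*, -0.17 to 0.022 for *adamts1*, -0.13 to 0.38 for *adamts15a*, -1.29 to 1.58 and -0.23 to 1.00 for ENSDARG00000012395 and ENSDARG00000114451, -0.093 to 0.29 for *mmp2*, -0.62 to 0.15 for *mmp9* and -0.41 to 0.023 for *timp2b*. The ranges of *adam9* (0.81 to 0.94), *adam19b* (0.38 to 0.43) and *adamtsl2* (0.44 to 0.58) stayed above 0. So did those of *adam10a*, *adam10b*, *adam17b*, *adamts5*, *mmp14a*, *mmp14b* and *timp4.1*. Those of *adam19a*, *adamts9* and *timp2a* stayed below 0. For genes without overlap between the genotypes, among them *adam9*, *adam19b* and *adamtsl2*, no range could cross 0. Such ranges restate the lack of overlap and are no separate check. Another pseudocount or scaling turned none of the 22. The variance models, the replicate block and the minimum cannot change a log2 fold change in this balanced design. Their unchanged signs, in the 22 genes or in the 20 kept with a mean of at least 20, are therefore no check. Without the 4 members on chromosome 8, 8 of 44 had an unadjusted limma p under 0.05, and without *adam11* and *adam28* 7 of 46 did (both chosen after seeing the data). Of all genes tested, 21.6% did so. Count models (edgeR, DESeq2) were not run, as the values are not whole reads. The depth per gene behind the values is unknown, and members with a mean under 20 rest on few reads.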

Other observations

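Marker lists of other tissues differed among the pools and give the setting in which the protease values were measured. The 3 cartilage markers summed to 212 and 206 normalized counts in the mutants and 104 and 108 in the wild types. The neural crest gene *sox10* had 27 and 36 in the mutants and 2 and 1 in the wild types (limma adjusted p = 0.126). The other 3 tested markers of neural crest and pigment overlapped. Skeletal muscle markers summed to 4144 and 4608 in the mutants and 4001 and 3911 in the wild types. Most of that sum was *ckma*, lower in both mutant libraries with 3034 and 3021 against 3179 and 3306. The other 3 were higher in both, with 923 and 1344 against 689 and 490 for *mylpfa*. *tnnt3a* had 90 and 139 in the mutants and 41 and 27 in the wild types, and *myog* 97 and 104 against 92 and 88. The 5 cardiomyocyte markers summed to 26511 and 25343 in the mutants and 26049 and 28131 in the wild types. Of these, 4 were lower in both mutant libraries, against 25.8% of all genes. Among the 4, *myh7* had 10815 and 10832 in the mutants and 11525 and 11912 in the wild types (log2 fold change -0.11, limma adjusted p = 0.141). Only *myh6* overlapped, with 9652 and 8481 against 8169 and 9625. The 5 endocardial and endothelial markers summed to 16336 and 18214 in the mutants and 17132 and 15902 in the wild types. The endocardial sums thus followed the library order of most Mmp genes, with overlap between the genotypes. By gene they divided, with *cdh5* and *tie1* overlapping and *fli1a* lower in both mutant libraries. *kdrl* was higher in both, with 1799 and 1917 in the mutants and 1658 and 1611 in the wild types. *nfatc1* was also higher in both and had the opposite library order, with 1872 and 1825 against 1549 and 1644. No marker of this list had an adjusted p under 0.05.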
